A study of Mus musculus with 6 samples.

Results

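The genes described here encode AP-1, the dimeric transcription factor that joins a Fos-type protein to a Jun-type protein, together with the related stress factor Atf3 and with Batf3. The 9 members, *Fos*, *Fosb*, *Fosl1*, *Fosl2*, *Jun*, *Junb*, *Jund*, *Atf3* and *Batf3*, were found by symbol in a table of 13809 genes. They were chosen on measured values, with the difference between *Pkm1*-KO and WT hearts already known, so that difference is given for them as a description without a test. Of the 9, 7 are listed in the table and *Fosl1* and *Batf3* are not. The lowest total of any gene listed is 59 counts over the 6 libraries, so a missing gene may have been low rather than at 0.

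The study asked what the muscle isoform of pyruvate kinase, PKM1, does in the developing heart. Total RNA was depleted of ribosomal RNA and sequenced from 3 WT and 3 *Pkm1*-KO hearts at embryonic day (E) 18.5. The tissue is called heart in the labels and ventricular tissue in the paper's text. KO embryos were homozygous for a CRISPR/Cas9 deletion in exon 9 of *Pkm*, the exon used only by the *Pkm1* transcript, which brings in a premature stop codon and is carried by every cell of the embryo; the line was made in zygotes from BDF1 females mated with BDF1 males, BDF1 being the hybrid of C57BL/6J females and DBA/2 males, and WT embryos carried no deletion. The 3 libraries of each genotype are called a, b and c here, because the table's columns give the genotype and no replicate number.

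AP-1 proteins are basic leucine zipper factors that bind DNA as dimers. *Fos*, *Fosb*, *Jun*, *Junb* and *Atf3* are immediate early genes, switched on within minutes of growth factors, stretch, calcium or stress through factors that are already present in the cell, and their mRNAs are short-lived. *Jund* and *Fosl2* are induced less sharply and are expressed in many resting tissues. In the heart the family is known for its induction by pressure load, stretch and reperfusion.

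Promoter windows of 5 members are shown first, because each holds a motif marked below. No marked motif is in all 5, and the windows of *Fosl2*, *Jund* and *Batf3* hold none of the marked motifs. RefSeq gave a window from 250 bases before to 50 bases after the start for 8 of the 9 members (GRCm38.p6), with no window for *Fosl1*. Capitals mark the short site TGACG, the NF-Y motif CCAAT and the TATA box TATAAA on either strand, so a match on the other strand reads as the complement (CGTCA for the short site), and each sequence runs 5' to 3' along its gene's strand.
Fos, chr12:85473640-85473939, plus strand: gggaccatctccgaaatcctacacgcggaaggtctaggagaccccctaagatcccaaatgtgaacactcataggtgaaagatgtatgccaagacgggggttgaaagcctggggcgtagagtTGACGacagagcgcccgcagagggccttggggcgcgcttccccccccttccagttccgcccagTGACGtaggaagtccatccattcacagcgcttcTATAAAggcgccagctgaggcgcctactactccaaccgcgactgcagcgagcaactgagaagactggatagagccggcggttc
Fosb, chr7:19309996-19310295, minus strand: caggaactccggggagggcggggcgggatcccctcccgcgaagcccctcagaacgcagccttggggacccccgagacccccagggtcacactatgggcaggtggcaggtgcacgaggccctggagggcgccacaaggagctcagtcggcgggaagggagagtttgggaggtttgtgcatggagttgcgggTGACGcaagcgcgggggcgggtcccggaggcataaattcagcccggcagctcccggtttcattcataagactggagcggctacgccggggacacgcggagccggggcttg
Jun, chr4:95052173-95052472, minus strand: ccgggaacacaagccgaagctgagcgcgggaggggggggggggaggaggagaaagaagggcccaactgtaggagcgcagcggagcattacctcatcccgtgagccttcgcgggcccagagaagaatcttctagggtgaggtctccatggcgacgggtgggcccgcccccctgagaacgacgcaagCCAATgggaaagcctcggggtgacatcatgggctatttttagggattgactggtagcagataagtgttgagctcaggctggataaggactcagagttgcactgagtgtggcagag
Junb, chr8:84978699-84978998, minus strand: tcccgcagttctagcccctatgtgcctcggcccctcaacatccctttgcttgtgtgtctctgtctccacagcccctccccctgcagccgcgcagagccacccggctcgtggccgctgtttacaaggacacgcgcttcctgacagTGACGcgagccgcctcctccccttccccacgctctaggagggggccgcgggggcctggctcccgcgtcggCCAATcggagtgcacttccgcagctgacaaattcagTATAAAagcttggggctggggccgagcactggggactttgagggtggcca
Atf3, chr1:191183284-191183583, minus strand: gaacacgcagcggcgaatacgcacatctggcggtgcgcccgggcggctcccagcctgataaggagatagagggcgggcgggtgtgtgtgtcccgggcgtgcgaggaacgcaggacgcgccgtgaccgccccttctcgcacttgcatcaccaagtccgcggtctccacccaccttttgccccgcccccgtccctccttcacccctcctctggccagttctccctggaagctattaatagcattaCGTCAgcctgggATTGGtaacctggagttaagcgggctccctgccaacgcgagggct
The *Atf3* window belongs to a start that lies 34706 bases inside the GENCODE gene, and the *Junb* window to one 30 bases upstream of the GENCODE start.

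The CArG box, to which serum response factor binds, was in none of the 7 windows of listed members and in 1.63% of all 32851 RefSeq windows. The exact letters of the full cyclic AMP element TGACGTCA and of the AP-1 element TGACTCA were also in none, against 1.79% and 5.2% of all windows. Near matches were not counted, such as TGACATCA in the *Jun* window, which differs from TGACGTCA by a single base. TGACG, the start of the cyclic AMP element, was in 4 of the 7 windows (*Fos*, *Fosb*, *Junb* and *Atf3*), against 20.8% of all windows and 30% of the windows of tested genes. CCAAT, the motif of NF-Y, was in 3 of 7 (*Jun*, *Junb* and *Atf3*), against 37.4% of all windows. TATAAA was in 2 of 7 (*Fos* and *Junb*), against 13.6% of all windows and 7.4% of those of tested genes. The *Junb* match lies at bases 1 to 6 from the RefSeq start, not upstream of it. The GC box GGGCGG was in 5 of 7 (all but *Junb* and *Jund*), against 35.7% of all windows and 61% of those of tested genes. The letters were searched on both strands, and a match describes the letters and no more. Letters more than 250 bases before the start were not searched, so a motif absent from a window may lie farther upstream. The *Fos* window held 2 TGACG sites, starting 129 and 66 bases upstream of the start, and a TATAAA starting 33 bases upstream. *Jund* had none of these motifs in its window, but RefSeq places its start 1210 bases upstream of the GENCODE start, so that window does not lie at the start of the GENCODE gene.

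**Figure D1:**
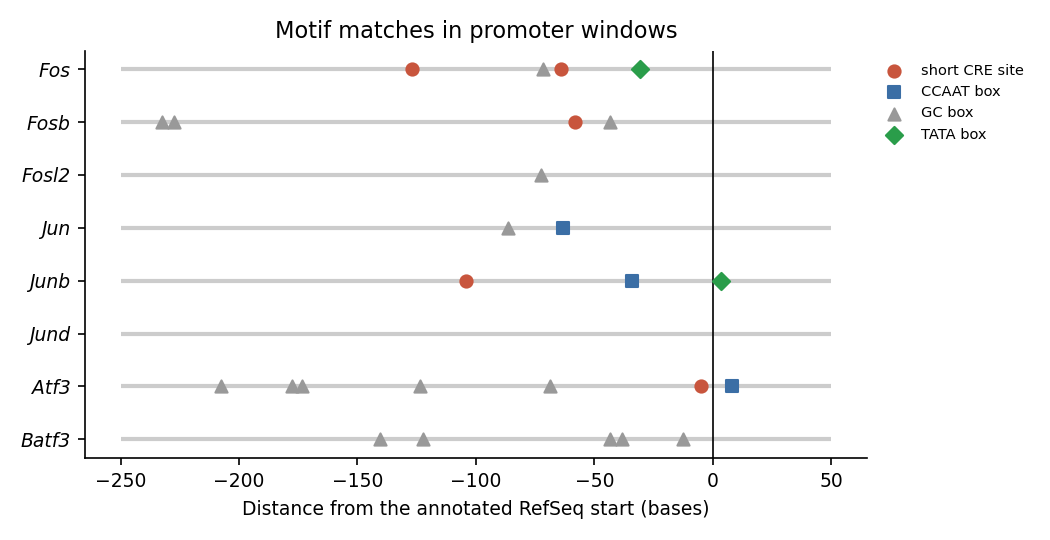
Positions of motif matches, by distance in bases from the RefSeq start, in the promoter windows of the 7 listed members and *Batf3*. Circles mark the short site of the cyclic AMP element, squares CCAAT, triangles the GC box and diamonds TATAAA, on either strand, and the *Jund* line carries no mark.

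The members also differ in the build of their transcripts. *Jun*, *Junb* and *Jund* have 1 exon, as do 2.47% of the 12583 tested genes with an annotated 3' untranslated region, while *Fos*, *Fosb*, *Fosl2* and *Atf3* have 4. ATTTA, the pentamer of AU-rich elements that mark short-lived mRNAs, was found at least once in the 3' untranslated region of all 7 listed members and of 70.1% of those tested genes. *Fos* had 4 copies in 815 bases, or 4.91 per kilobase, a density above that of 93.6% of the genes. *Junb* followed with 4.12 per kilobase, *Jun* with 3.24, *Atf3* with 2.53, *Jund* with 1.88 and *Fosl2* with 1.72, all above the median of 1.31, and *Fosb* had 0.466. The first window of 30 bases that holds 2 copies is shown for *Fos*, *Jun* and *Fosl2* from the GENCODE M21 transcripts, 5' to 3', with ATTTA in capitals.
Fos, bases 632 to 661 of the 3' untranslated region: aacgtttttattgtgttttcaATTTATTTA
Jun, bases 1028 to 1057: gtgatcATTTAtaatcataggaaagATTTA
Fosl2, bases 3669 to 3698: agaagaaattgacATTTAttttattATTTA

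Some facts of the libraries bear on every member. Totals were 15567624 to 19875546 counts. Levels in CPM are counts scaled to the library total after TMM normalization. On this scale 3 counts, used here as a floor of detection, equal 0.153 to 0.197 CPM. *Pkm*, counted over both isoforms, fell from 1320 ± 41.1 CPM in WT to 542 ± 10.1 in KO (SD, n = 3 each). *Xist*, the RNA of the inactive X chromosome, was at 4.8 to 5.79 CPM in WT and 2240 to 2330 in KO, while 4 genes of the Y chromosome (*Kdm5d*, *Uty*, *Ddx3y* and *Eif2s3y*) were at 0 counts in all KO libraries and at 33.9 CPM or more in all WT libraries. Sex therefore moved with genotype and the effects of these cannot be told apart in any value below, although every member is autosomal. Residual ribosomal RNA, counted as *Rn45s*, made up 2.21% to 2.48% of each WT library and 2.7% to 2.79% of each KO library. WT c differed from WT a and WT b more than these did from each other (chi-square over degrees of freedom 3.91 and 3.35 against 1.56). The part of these differences in the members' values was not tested. The hearts expressed the cardiomyocyte markers strongly, at a summed 120000 to 131000 CPM. The paper calls the 3 libraries of a genotype biological replicates, and the litters of the embryos are not given.

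All 7 listed members were lower in KO than in WT hearts, and no KO library reached the lowest WT library for any of them. *Fos*, *Atf3* and *Fosb* stood at 6.23% to 11.6% of their WT mean, *Junb*, *Fosl2* and *Jun* at 29.9% to 44.6%, and *Jund* at 66.8%. Over all 13804 tested genes, the quasi-likelihood test of edgeR, adjusted by Benjamini-Hochberg, called 15.7% lower and 14.6% higher in KO at an adjusted p under 0.05. Every KO library was below every WT library for 21.4% of the genes, and 1.27% were called lower with a change of at least 2-fold. The 7 members fall in all of these lower classes, except that *Jund* changed by less than 2-fold. Since the choice of members used this contrast, nothing is read from these counts. The median log2 fold change of all tested genes was 0.00. RNA from whole tissue cannot tell fewer cells of a type from less RNA per cell.

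**Figure D2:**
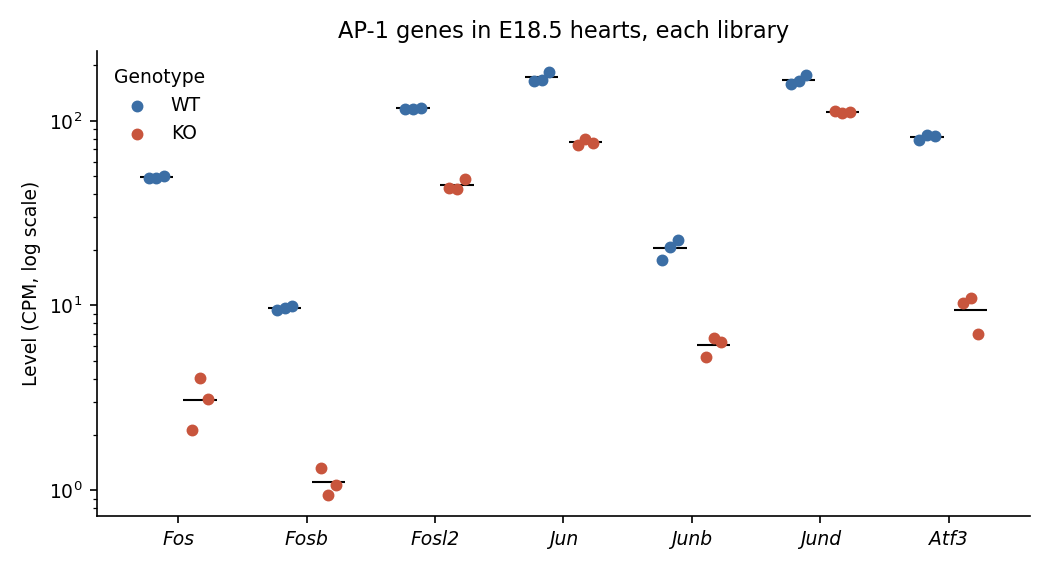
Level of each listed member in every library, in CPM on a log scale. Blue points are the 3 WT libraries, red points the 3 KO libraries and black lines the group means, and no red point reaches the blue points of its gene.

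*Fos*, the founding Fos-type gene, lies at chr12:85473890-85477273 (GRCm38, plus strand). Its level was 49.2, 49.1 and 50.5 CPM in WT a, b and c, and 2.12, 4.04 and 3.11 CPM in KO a, b and c. The WT libraries differed by at most 1.03-fold, whereas the highest KO library held 1.91 times the level of the lowest. The log2 fold change was -4.02 (SE 0.11), which placed *Fos* 6th from the lowest of all tested genes. The genes with lower values were the Y chromosome genes named above and *Cxcl1*, at a mean of 0.0358 CPM in KO. The counts behind these levels were 769 to 963 in WT and 40 to 64 in KO, well above the floor.

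*Fosb*, whose product pairs with Jun proteins like Fos and which is best known from neurons, lies at chr7:19302696-19310051 on the minus strand. It was the weakest member, at 9.5, 9.75 and 9.92 CPM in WT and 1.32, 0.947 and 1.07 CPM in KO. The groups lay far apart, with KO a the highest of the KO libraries. On the log2 scale the fold change was -3.10 (SE 0.17), and the KO levels rest on only 15 to 25 counts per library.

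*Fosl2*, also called Fra-2, is a Fos-type gene whose product lacks the strong transactivation domain of Fos and lies at chr5:32135801-32157842 on the plus strand. Its WT levels were 116, 116 and 118 CPM and its KO levels 43, 42.9 and 48.6 CPM. The groups were far apart, with KO c the highest of the KO libraries. The log2 fold change was -1.38 (SE 0.05), so *Fosl2* differed the least of the 3 Fos-type genes listed.

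*Jun*, the founding Jun-type gene and a target of the JNK kinases, lies at chr4:95049034-95052222 on the minus strand. It was at 165, 167 and 184 CPM in WT and at 74.2, 79.5 and 76 CPM in KO. WT c stood above the other WT libraries, and the KO libraries were close together. Its log2 fold change was -1.17 (SE 0.04). The antisense gene *Junos* overlaps 232 bases of *Jun* exon and is not listed, and the strand setting of the counting is not given in the sources used here, so reads of the 2 genes cannot be told apart.

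*Junb*, whose protein can restrain Jun, lies at chr8:84974484-84978718 on the minus strand. It was at 17.6, 20.8 and 22.7 CPM in WT and at 5.25, 6.69 and 6.33 CPM in KO. These groups lay apart although the WT libraries differed by up to 1.29-fold. The log2 fold change was -1.75 (SE 0.11), the lowest of the Jun-type genes. *Junb* shares 173 exon bases with the antioxidant gene *Prdx2* on the other strand, which was at 188 ± 10.2 CPM in WT and 181 ± 1.66 in KO (SD, n = 3 each) and did not pass the test.

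*Jund*, the Jun-type gene with the most even expression across tissues, lies at chr8:70698949-70700616 on the plus strand. It was at 158, 164 and 178 CPM in WT and at 113, 110 and 111 CPM in KO. The gap between the groups was 1.41-fold, from the highest KO to the lowest WT library, the narrowest gap of the 7 members. With a log2 fold change of -0.58 (SE 0.04), *Jund* ranked 513th from the lowest. The antisense gene *Gm11175*, not listed in the table, overlaps 877 of the 1668 bases of *Jund* exon. With the strand setting not given, reads of these genes cannot be told apart there. The levels and shares of *Jund* given below carry this limit too.

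*Atf3*, a stress-induced factor that pairs with Jun proteins and often represses, lies at chr1:191170296-191218039 on the minus strand. It was at 78.5, 83.7 and 82.7 CPM in WT and at 10.3, 11 and 6.98 CPM in KO. The groups lay far apart, and KO c was the lowest of the KO libraries, which differed by up to 1.57-fold against 1.07-fold in WT. The log2 fold change was -3.12 (SE 0.09), next to that of *Fosb*.

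**Figure D3:**
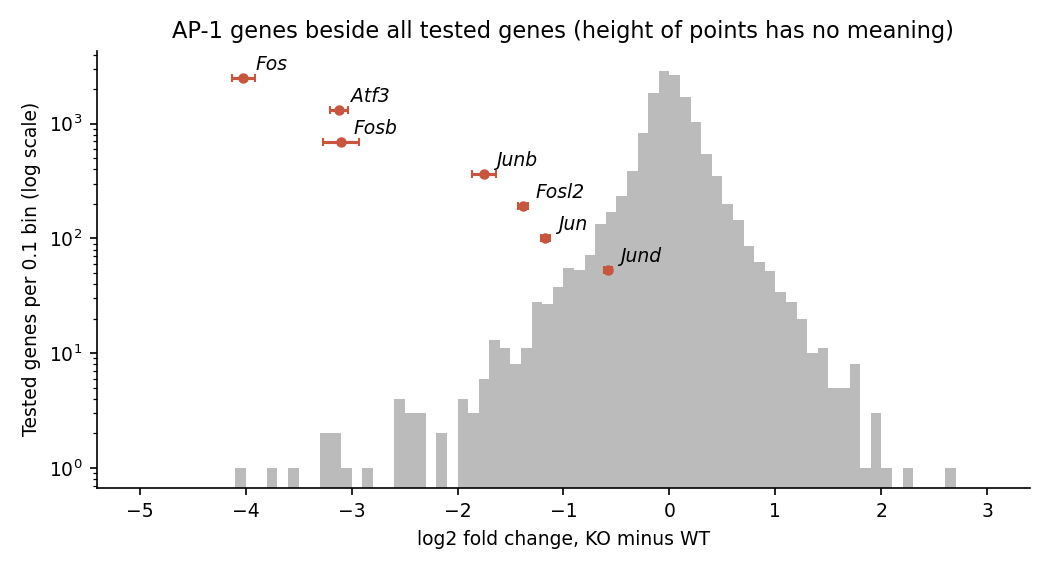
Grey bars count tested genes by log2 fold change (KO minus WT) in bins of 0.1, on a log scale, from -5 to 3, and 10 genes lie outside this range. Red points are the listed members with bars of 1 SE, and their height carries no meaning; *Fos* lies farthest to the left and *Jund* nearest to 0.

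The spread among the libraries of a genotype was not used to choose the members. It was set beside 500 genes of like mean level, as the SD of log2 CPM. In WT, *Fos*, *Fosb* and *Fosl2* had SDs of 0.0228, 0.0312 and 0.0182, larger than in 9%, 6.2% and 11.8% of like genes. Their WT coefficients of variation, 1.59%, 2.18% and 1.27%, lay below the 3.41%, 7.7% and 2.22% that counting error alone gives on average, so 3 libraries do not resolve the spread of these genes in WT. In KO, the SD of *Fos* was 0.45, larger than in 98.2% of like genes, and that of *Atf3* 0.351, larger than in 99.8%, and their KO coefficients of variation, 31.1% and 22.8%, lay above the 13.6% and 7.75% of counting error. The KO SDs of *Fosb* and *Fosl2* were larger than in 33.2% and 89.4% of like genes. The KO coefficient of variation of *Fosb*, 17.2%, lay below the 22.4% of counting error, so its KO spread is not resolved either. *Jun*, *Junb* and *Jund* had WT SDs larger than in 87.8%, 93.8% and 89% of like genes, and KO SDs larger than in 63%, 70.2% and 13.4%, that of *Jund* in KO again lying below counting error. WT c was the highest WT library for 6 of the 7 members, *Atf3* being the exception. Among the KO libraries the highest was KO b for 4 members, KO a for 2 and KO c for 1. Each SD rests on 3 libraries, and the difference in spread between genotypes was not tested.

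The make-up of the family was compared on levels per length, as CPM per kilobase of exon. In WT the order of the means was *Jund* (99.9 CPM per kilobase), *Jun* (53.8), *Atf3* (37.9), *Fos* (21.1), *Fosl2* (12.1), *Junb* (8.86) and *Fosb* (1.56), and the ranges of neighbours did not overlap. In KO it was *Jund* (66.7), *Jun* (24), *Fosl2* (4.63), *Atf3* (4.38), *Junb* (2.65), *Fos* (1.31) and *Fosb* (0.179). Among the KO neighbours, *Fosl2* and *Atf3* overlapped and could not be ordered. *Fos* was 4th in WT and 6th in KO, and *Fosl2* was 5th in WT and shared the 3rd and 4th places with *Atf3* in KO. These levels depend on the length used: with the longest transcript in place of merged exons, *Fosb* was at 2.57 CPM per kilobase in WT and 0.295 in KO, and *Fosl2* at 17.9 and 6.86.

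Among the Fos-type mRNAs, *Fos* made up 60.7%, 60.8% and 60.9% of the summed level per kilobase in WT a, b and c. In KO a, b and c it made up 16.2%, 27.2% and 20.3%. *Fosl2* took the complementary course, from 34.7% ± 0.123 in WT to 75.8% ± 4.92 in KO (SD, n = 3 each), and was the main Fos-type mRNA of every KO library. The summed Fos-type level was 34.7 ± 0.511 CPM per kilobase in WT and 6.12 ± 0.506 in KO.

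The Jun-type sum was 163 ± 10.4 CPM per kilobase in WT and 93.4 ± 0.42 in KO (SD, n = 3 each), 57.4% of WT, while the Fos-type sum stood at 17.6%. The share of *Jund* went from 61.4% ± 0.165 to 71.5% ± 1.11 although its level was lower. *Jun* went from 33.1% ± 0.335 to 25.7% ± 0.793 and *Junb* from 5.44% ± 0.41 to 2.83% ± 0.34. Over all 7 genes, the share of *Jun* was alike in both genotypes, at 22.9% ± 0.381 in WT and 23.1% ± 0.593 in KO. *Jund* made up 42.4% of this sum in WT and 64.2% in KO, *Atf3* 16.1% and 4.21%, and *Fos* 8.98% and 1.26%. These shares describe mRNA, and dimers were not measured.

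**Figure D4:**
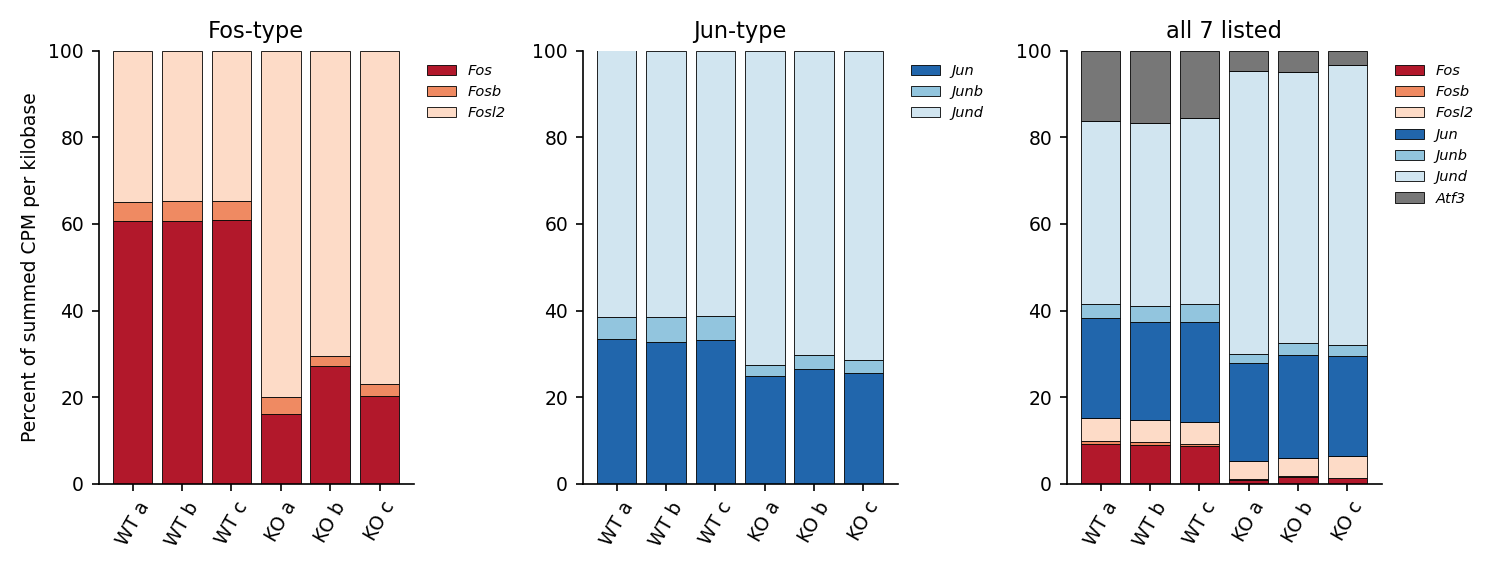
Share of each gene in the summed CPM per kilobase of the 3 Fos-type genes, the 3 Jun-type genes and all 7 listed members, for each library, with bars from 0 to 100%. The *Fos* share is between 60.7% and 60.9% in the WT libraries and between 16.2% and 27.2% in the KO libraries of the Fos-type panel.

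The genes whose profile over the 6 libraries was most like that of *Fos* were *Cxcl1*, *Ctgf*, *Nr4a3*, *Cd14* and *Egr1*. Likeness was measured as the Euclidean distance between centred log2 CPM values, over the 13501 genes averaging 1 CPM or more. A prior count of 2 was added before the logarithm. These 5 genes lay at 1.08 to 1.88. *Atf3* lay at 1.34 and *Fosb* at 1.54 from *Fos*, within that range, while *Jun* lay at 3.52. *Cxcl1*, a chemokine, was at 2.35 to 3.35 CPM in WT with 0, 0 and 2 counts in the KO libraries, and *Cd14*, a lipopolysaccharide co-receptor, was at 1.91 to 2.45 CPM in WT with 3, 3 and 4 counts in KO, so no fold change is given for either. The distances and places of both genes depend on the prior count. *Ctgf*, a matricellular gene also known as *Ccn2*, was at 1230 ± 64.1 CPM in WT and 125 ± 3.08 in KO (SD, n = 3 each).

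Nearest to *Jun* lay *Myc*, *Klf6*, *Tgif1*, *Insig1* and *Cebpd*, at distances of 0.121 to 0.162. *Myc*, a growth regulator, was at 54.3 ± 2.46 CPM in WT and 23.3 ± 0.937 in KO, and *Insig1*, a sterol sensor, at 64.1 ± 0.125 and 29 ± 0.684 (SD, n = 3 each). *Fosl2*, at 0.332, was the member nearest to *Jun*. With 2 groups of 3 libraries, these distances mostly compare sizes of the difference between genotypes.

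The lists that follow hold other genes of the pathway, and their counts come from the same fit with adjustment over all 13804 genes. Upstream of AP-1, the MAP kinase cascade carries growth factor and stress signals. Of its 23 genes, all listed, 2 passed the test as lower and 4 as higher, beside 15.7% and 14.6% of all tested genes, and the median log2 fold change was -0.01. The kinases higher in KO were *Map2k1* (0.26, SE 0.05), *Mapk14* (0.21, SE 0.05), *Rps6ka2* (0.17, SE 0.05) and *Araf* (0.15, SE 0.05). *Mapk3*, which encodes ERK1 (-0.16, SE 0.05), was among the lower. *Mapk8*, which encodes JNK1, was at 57.6 ± 1.47 CPM in WT and at 58.5 ± 2.03 in KO (SD, n = 3 each) and did not pass the test. No gene of this list differed by as much as *Jund*.

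Of the 8 factors that bind the serum response element or relay cytokine signals, 2 were lower and none higher. The median log2 fold change was -0.07, and 15.7% of all tested genes were lower and 14.6% higher. *Stat3* was at 152, 151 and 152 CPM in WT and 97.2, 97.9 and 98.3 CPM in KO, with a log2 fold change of -0.63 (SE 0.04). *Srf*, which drives *Fos* through the serum response element, was at 160 ± 7.84 CPM in WT and 165 ± 5.89 in KO (log2 fold change 0.05, SE 0.04) and did not pass the test. Among the 7 genes for CREB-type factors and their coactivators, *Creb1* (0.25, SE 0.05) and *Crtc1* (0.28, SE 0.07) were higher, *Crem* (-0.40, SE 0.12) and *Creb5* (-0.26, SE 0.06) were lower, and the median was 0.02.

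Of 12 other zipper factors that can pair with Fos or Jun proteins, 8 were listed, 3 were lower and none higher. The median log2 fold change was 0.02, beside 15.7% lower and 14.6% higher among all tested genes. *Mafk*, a small Maf protein, was at 46.9, 51.7 and 52 CPM in WT and 24.1, 22.9 and 23.2 in KO, a log2 fold change of -1.10 (SE 0.06). *Jdp2*, an AP-1 repressor (-0.37, SE 0.12), and *Maff* (-0.23, SE 0.08) were the others that passed. *Atf2* and *Atf7*, further partners of Jun, were at 57.2 ± 4.62 and 101 ± 5.27 CPM in WT and at 61.7 ± 1.38 and 108 ± 2.25 in KO (SD, n = 3 each) and did not pass.

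Proteins that bind AU-rich elements act on the mRNAs of several members. Of 13 genes of this machinery, 4 were lower and 1 higher, beside 15.7% lower and 14.6% higher among all tested genes. *Zfp36*, which encodes tristetraprolin and is itself an immediate early gene, was at 49.3, 52.6 and 59.8 CPM in WT and 18.2, 16.3 and 19.1 CPM in KO (log2 fold change -1.58, SE 0.07). *Zc3h12a*, an endonuclease (-0.55, SE 0.17), *Zfp36l1* (-0.19, SE 0.04) and *Cnot1*, the deadenylase scaffold (-0.11, SE 0.03), were also lower, and *Rc3h1* was higher (0.16, SE 0.04). *Khsrp*, *Hnrnpd* and *Elavl1* did not pass, with log2 fold changes between -0.07 and 0.00.

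Of 20 genes known as AP-1 targets, 15 were listed, 6 were lower and none higher, beside 15.7% lower and 14.6% higher among all tested genes, with a median log2 fold change of -0.16. Among the lower were the chemokine *Ccl2* (-1.18, SE 0.28), the matrix protein *Spp1* (-0.65, SE 0.14) and the growth factor *Hbegf* (-0.44, SE 0.09). *Ezr* (-0.23, SE 0.04) and the cyclin *Ccnd1* (-0.16, SE 0.04) also passed. *Mt1*, *Mt2*, *Plau* and *Timp1* did not pass, with log2 fold changes from -0.07 to 0.11.

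The other immediate early genes were mostly lower in KO. Of 21, all listed, 20 were lower in KO and none higher, beside 15.7% lower and 14.6% higher among all tested genes. Of these, 12 were lower by at least 2-fold, and the median log2 fold change of the list was -1.11. This list was drawn up with earlier results of these data known and is not independent evidence of a direction. *Egr1*, a zinc finger factor, was at 110, 106 and 124 CPM in WT and 19.3, 19.1 and 18.4 in KO. *Nr4a1*, an orphan nuclear receptor, was at 166, 161 and 178 CPM and 29.8, 30.6 and 30.6, and *Btg2*, an antiproliferative gene, at 141, 149 and 153 CPM and 25.3, 25.7 and 25.2. The KO libraries of these genes lay close together and far below the WT libraries. *Arc*, at 1.19 ± 0.223 CPM in WT and 0.69 ± 0.189 in KO (SD, n = 3 each), was the gene that did not pass, with an adjusted p of 0.0778 by edgeR's quasi-likelihood test.

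**Figure D5:**
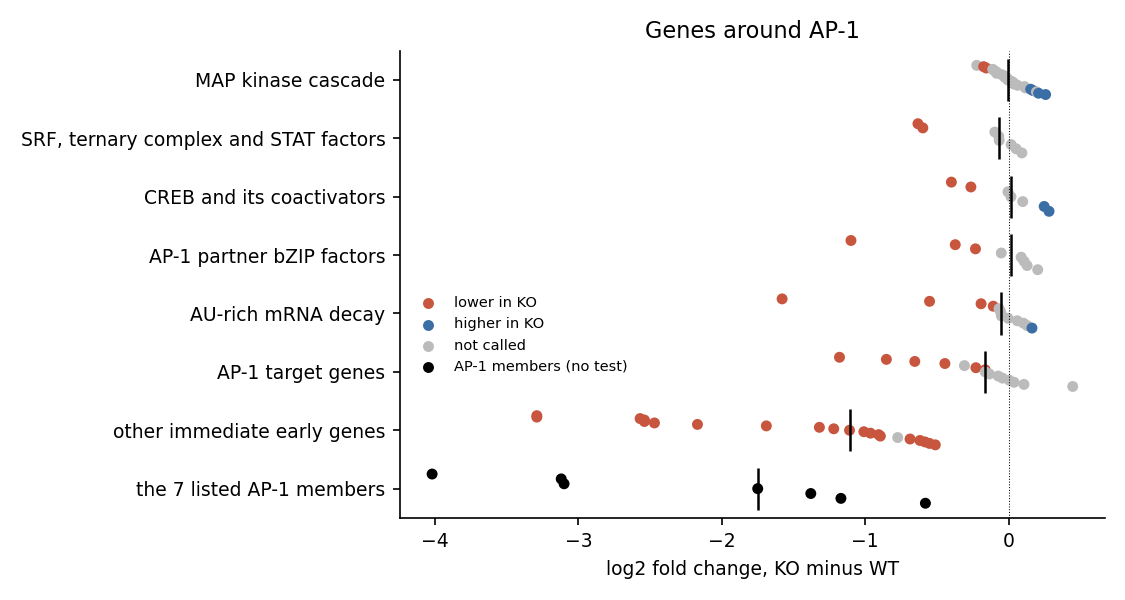
Log2 fold change (KO minus WT) of each listed gene of 7 pathway lists and of the 7 listed members. Red and blue points passed the test as lower and higher in KO, grey points did not, black points are the members, for which no test is given, and upright lines mark medians; the medians of the first 5 lists lie between -0.07 and 0.02, that of the other immediate early genes at -1.11.

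Markers of the cell types that a heart holds were read from the same fit. Their counts stand beside 15.7% lower and 14.6% higher among all tested genes. Of 8 cardiomyocyte markers, 6 were lower and 2 higher, with log2 fold changes from -0.46 to 0.10. Of 7 fibroblast and 7 endothelial markers, 3 each were lower and none higher, and their summed levels were 3920 to 3960 CPM and 1150 CPM in WT and 3650 to 3720 and 1080 to 1090 in KO. Of 6 listed immune markers, 1 was lower, the neutrophil gene *S100a9*, and the sums overlapped, at 23.5 to 25.1 CPM in WT and 21.9 to 27.3 in KO. Of 4 smooth muscle markers, 1 was lower and 1 higher, of 4 epicardial markers 2 were higher, and of 2 listed erythroid markers 1 was higher. Of 6 listed atrial markers, *Myl4*, *Myl7* and *Nppa* were higher. *Nr2f1* (-0.23, SE 0.24), *Nr2f2* (0.06, SE 0.07) and *Stard10* (-0.09, SE 0.12) did not pass. The sum of the atrial list, 595 to 601 CPM in WT and 1010 to 1030 in KO, is mostly *Nppa* and *Myl4*. The part of cell composition, of atrial tissue or of sex in the members' values was not tested.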

How the data were processed

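RNA-seq counts from 3 WT and 3 *Pkm1*-KO mouse hearts at E18.5 were analysed. The authors removed ribosomal RNA and sequenced paired ends. The submitters' processing notes name cutadapt 1.18, HISAT2, StringTie and the mm10 build. The authors deposited unnormalized counts for each gene symbol, with a column for each library, in a table that also holds their own comparison (log2 fold change, average log2 CPM, p-value and false discovery rate), which was not used. The counting program, its strand setting and the filter behind the table are not given in the sources used here.

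Genes were kept by filterByExpr of edgeR 4.0.16 in R 4.3.3 (13804 of 13809), scaled by TMM and compared two-sided by its quasi-likelihood test, with no term but genotype and p-values adjusted by Benjamini-Hochberg over all genes tested, at an adjusted p under 0.05. The standard error is the absolute log2 fold change over the square root of F. Levels per kilobase used the merged exons of GENCODE M21, and promoter windows came from RefSeq. Totals of 15567624 to 19875546 counts set the precision, and the floor of 3 counts covers counting error only. No pair of libraries agreed within sampling noise (chi-square over degrees of freedom 1.56 to 3.91 within a genotype), so none was merged. The script was tested on simulated data. Figures were drawn with matplotlib 3.10.9.

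The genes named are the 9 members, *Pkm*, the 5 genes nearest in profile to *Fos* and to *Jun*, and genes of a list that passed the test with the largest fold change or whose role is described, and some genes that this rule names are not reported here. The members and lists were chosen with earlier results of these data known, and the motif TGACG, the pentamer ATTTA and exon numbers were added after values were seen. The alternatives were RLE size factors, DESeq2 1.42.0, limma's voom (3.58.1), no filter, at least 10 counts in every library, X and Y genes left out, each library left out, the most alike WT libraries summed, lengths of the longest transcript, and the 100 bases before the start. Protein sequences were not used here.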

Additional observations from a re-analysis of the deposited data

How the results depend on the processing

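The members' log2 fold changes, given as a description because the members were chosen on this contrast, ran over 13 alternatives from -4.24 to -3.80 for *Fos*, -3.25 to -3.01 for *Fosb*, -1.44 to -1.35 for *Fosl2*, -1.20 to -1.12 for *Jun*, -1.84 to -1.64 for *Junb*, -0.62 to -0.53 for *Jund* and -3.24 to -2.94 for *Atf3*. Over all genes, 1639 (DESeq2) to 2306 (without WT c) were lower and 1362 to 2013 higher. The count of lower MAP kinase genes was 2 in the report, 0 with DESeq2 and 1 with the most alike WT libraries summed; the cause was not tested. Leaving out single libraries, the lower calls ran from 1 to 2 for the MAP kinase and CREB lists, 1 to 3 for the AP-1 partners (1 without WT a or KO c) and 2 to 4 for AU-rich decay (2 without KO a). The higher calls ran from 0 to 1 for the AP-1 partners, serum response factors, AU-rich decay and AP-1 targets. The 20 lower calls among the other immediate early genes were 20 under every alternative. With the longest transcript as length, 15 of 26 levels and shares moved by more than 1 SD, *Fos* making up 53.5% of the Fos-type sum in WT and 16.9% in KO, and *Fosb* moving by over 1.5-fold, to 2.57 CPM per kilobase in WT and 0.295 in KO. Within the 100 bases before the start, TGACG was in 3 of the 7 windows, CCAAT in 2, TATAAA in 1 and GGGCGG in 5. The shares of all windows were 10.5%, 18.9%, 5.56% and 24.7% in the same order. No paired analysis was possible, because no pairing of WT with KO embryos, such as by litter, is given. The table's columns also carry no replicate numbers. Depth limits *Fosb* most, at 15 to 25 counts per KO library.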
